A study of Arabis alpina with 27 samples.

Results

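Aquaporins of the plasma membrane intrinsic protein (PIP) family were followed in stem internodes of the arctic-alpine perennial *Arabis alpina* before, during and after long-term cold. The genes were taken by homology, as rows of the count table paired with 1 of 10 *A. thaliana* loci. These loci are *PIP1-1* to *PIP1-5*, *PIP2-1*, *PIP2-2*, *PIP2-5*, *PIP2-6* and *PIP2-7*, which are also written with a semicolon in place of the hyphen. They were chosen with earlier results of these data known. Of the 10 loci, 8 had a row among 21641 genes, and 1 row was taken for each. These are 3 PIP1 genes and 5 PIP2 genes, and all 8 passed the filter on low counts that left 19337 genes for testing. *PIP1-1* (AT3G61430) and *PIP1-4* (AT4G00430) were paired with no row and were not analysed here. The rows are Aa_G17010 for *PIP1-2* (AT2G45960), Aa_G291140 for *PIP1-3* (AT1G01620), Aa_G439790 for *PIP1-5* (AT4G23400), Aa_G14050 for *PIP2-1* (AT3G53420), Aa_G457150 for *PIP2-2* (AT2G37170), Aa_G381300 for *PIP2-5* (AT3G54820), Aa_G216820 for *PIP2-6* (AT2G39010) and Aa_G723200 for *PIP2-7* (AT4G35100). By their *A. alpina* locus codes *PIP1-2*, *PIP2-2* and *PIP2-6* lie on chromosome 4, *PIP2-1* and *PIP2-5* on chromosome 5, *PIP1-5* and *PIP2-7* on chromosome 7 and *PIP1-3* on chromosome 1.

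PIPs are water channels that sit in the plasma membrane as tetramers, and they set much of the ease with which water crosses a cell. In *A. thaliana* and maize the PIP2 proteins are strong water channels by themselves, whereas PIP1 proteins need a PIP2 partner to reach the membrane, and several also pass CO2 or hydrogen peroxide. In stems and leaves they are abundant around the vascular tissue, and in *A. thaliana* the transcripts of most family members decline when plants are chilled.

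All plants were of the accession Pajares and had grown for 8 weeks in LD before any cold. The 9 groups had 3 libraries each, every library being a pool of stems from 10 plants. The group 0w was harvested before cold, and the groups 4w, 8w, 12w, 16w and 21w are named for the weeks they had spent at 4°C under an unchanged day length. The groups 12w+5dLD, 16w+5dLD and 21w+5dLD had in addition spent 5 days back in the LD greenhouse. Each cold group was also older than 0w, and no plants kept warm to the same age were sequenced, so that in any comparison with 0w the effects of cold and of age cannot be told apart. Cold was given in growth chambers, while 0w and returned plants came from the greenhouse. The effects of temperature and of place of growth cannot be told apart either. The tissue was a piece of main stem without axillary buds. The authors place it directly below the zone of short internodes that forms in the cold. Since it was taken whole, fewer cells of a type and less RNA per cell cannot be told apart.

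Libraries held 16.1 to 22.5 M counts (median 19.2). The counts were derived by the authors from coverage, and these totals exceed the approximate number of reads they state per library, so that counts are not numbers of reads. Levels are given as CPM, the count divided by the TMM-scaled total of the library in M counts. CPM is not corrected for gene length, so that levels are compared for a gene between groups and not between genes. Stem markers were present, with all 9 xylem and fiber wall genes and all 6 phloem genes of 2 lists detected. Of these phloem genes *NEN4* reached at most 1.65 CPM and was at 0 in 19 libraries, and *CALS7* was at 0 in 7. Of 5 flower genes 1 had a row, *AG*, which stayed at or below 3.76 CPM in every library. Over the most variable genes, the library labelled 21w+5dLD replicate 3 was more like the 21w libraries than like the others of its own group (Pearson r = 0.54 against 0.34). In this check the mean of the own group left out the library itself and so held fewer libraries than the others, which favours another group. Of the 27 libraries, 19 had a higher r with another group than with their own, the other 21w+5dLD libraries among them (0.53 and 0.56 with 16w+5dLD). The gap was widest for 21w+5dLD replicate 3, and the calls of PIP genes that changed when it was left out are given beside the results.

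To be called, a gene needed both a Benjamini-Hochberg adjusted p under 0.05 over all tested genes (edgeR, quasi-likelihood test) and a 2-fold or larger change. The first question was which PIP genes changed in the cold. Against 0w, the number of lower genes among the 8 was 3 (4w), 3 (8w), 4 (12w), 4 (16w) and 3 (21w). The corresponding shares of all tested genes called lower were 7.39, 9.11, 9.38, 10.2 and 7.14%. *PIP1-5* and *PIP2-2* were lower at all 5 durations, *PIP2-1* at all but 16w, *PIP1-3* at 12w and 16w and *PIP2-5* at 16w. No PIP gene was called higher at any duration, against 5.60, 6.26, 7.07, 7.07 and 5.14% of all genes. At an unadjusted p under 0.05 only *PIP2-6* at 8w was higher, and DESeq2 called none higher either. The median change of the 8 genes was -0.48 on the log2 scale (4w), -0.67 (8w), -0.95 (12w), -1.05 (16w) and -0.70 (21w), whereas the median of all tested genes lay between -0.02 and 0.00.

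**Figure D1:**
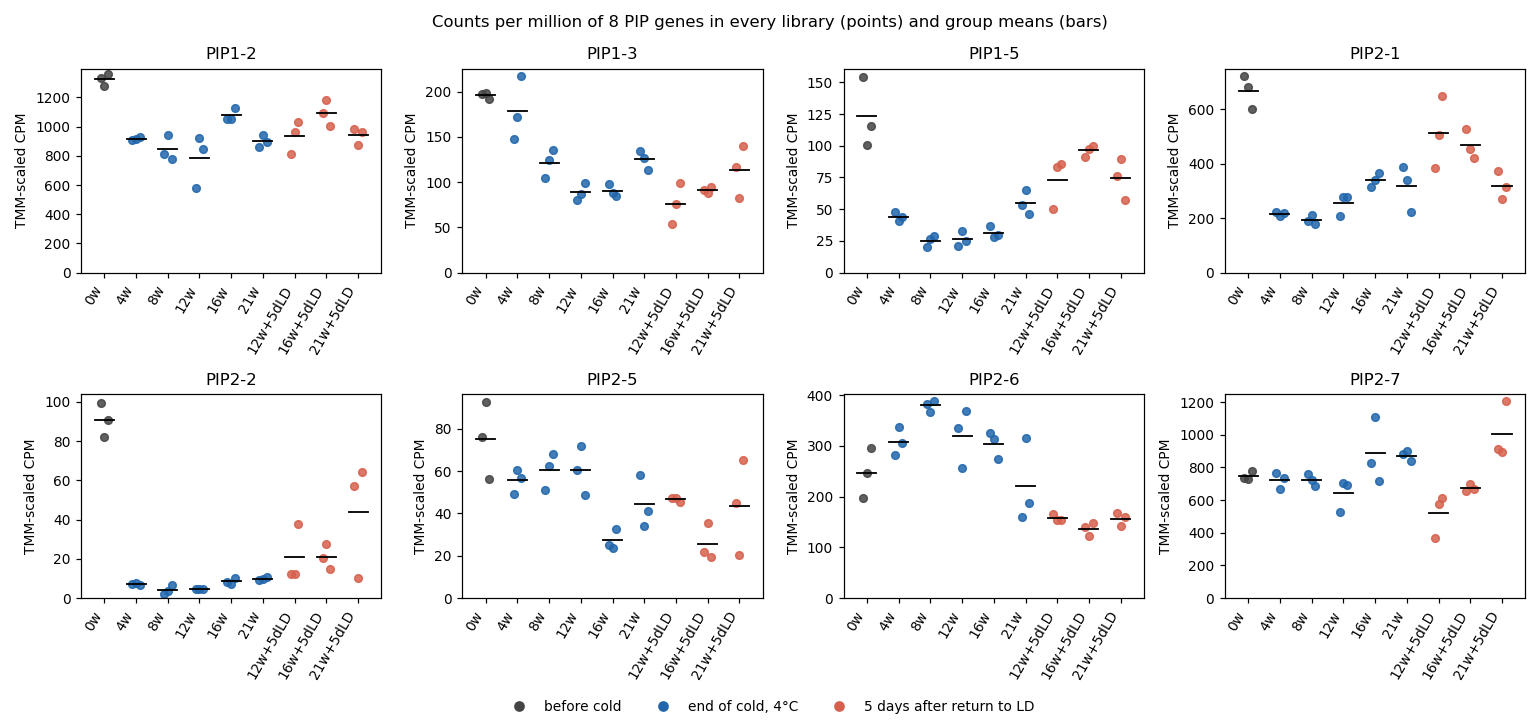
TMM-scaled CPM (y axis, linear from 0) of the 8 PIP genes in the 27 libraries by group (x axis), with 1 point per library and a bar at the mean of the 3 libraries. *PIP2-2* falls from 82 to 99.2 CPM at 0w to at most 10.9 in the 15 cold libraries, and *PIP2-6* alone has its highest group mean in the cold.

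Among the PIP1 genes, *PIP1-2* encodes an abundant isoform that in *A. thaliana* contributes to root and rosette water transport and to CO2 permeability of leaves. It had the narrowest range of the family over the 9 groups, with the highest group mean 1.69 times the lowest. Its 3 libraries at 0w lay between 1277 and 1358 CPM, above all 15 cold libraries (579 to 1124 CPM, median 915) and all 9 libraries after the return (812 to 1182 CPM, median 986). The decline passed the adjusted p but stayed under 2-fold at 4w (-0.53 ± 0.13, log2 fold change ± SE), 8w (-0.65 ± 0.13), 12w (-0.76 ± 0.13) and 21w (-0.56 ± 0.13), with adjusted p-values from 0.000136 to 0.0038 (edgeR). At 16w it was -0.30 with an adjusted p of 0.077. Changes after the return were between 0.02 and 0.25, with adjusted p-values of 0.155 or more.

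*PIP1-3* was 2-fold lower only after the longer stays at 12w and 16w. It stood at 197, 199 and 192 CPM in the 0w libraries and at 148, 172 and 217 CPM at 4w. It was at 105, 124 and 136 CPM at 8w, then 80.0, 87.0 and 99.6 CPM at 12w and 98.1, 88.2 and 84.6 CPM at 16w, before 135, 127 and 114 CPM at 21w. The 4w libraries overlapped those of 0w, and every later cold library was below the lowest 0w library. Against 0w the gene fell by 1.14 on the log2 scale at 12w (SE 0.19, edgeR adjusted p = 0.000124) and by 1.12 at 16w (SE 0.19, adjusted p = 0.000145). The change of -0.69 at 8w and that of -0.65 at 21w passed the adjusted p but not the fold limit. After the return it stood at 53.6, 76.2 and 98.9 CPM at 12w+5dLD, 91.7, 87.7 and 95.1 CPM at 16w+5dLD and 117, 83.1 and 140.5 CPM at 21w+5dLD. These values overlapped those of the end of cold at each duration. *PIP1-3* was also still lower than at 0w after 12 and 16 weeks of cold and the return, by -1.36 (edgeR adjusted p = 8.01e-05) and -1.10 (adjusted p = 0.000493).

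*PIP1-5* had the widest changes of the 3 PIP1 genes. Its libraries held 154, 100 and 116 CPM at 0w and 47.5, 41.1 and 43.9 CPM at 4w. They held 19.9, 26.7 and 29.3 CPM at 8w, 21.3, 32.6 and 24.9 CPM at 12w, 36.4, 28.1 and 29.5 CPM at 16w and 53.4, 65.3 and 46.5 CPM at 21w. None of the 15 cold libraries reached the lowest 0w library, and the mean at 0w was 4.88 times the lowest group mean, that of 8w. The log2 fold changes against 0w were -1.48 ± 0.22 (± SE, 4w), -2.29 ± 0.23 (8w), -2.23 ± 0.23 (12w), -1.98 ± 0.23 (16w) and -1.16 ± 0.22 (21w), with edgeR adjusted p-values from 6.25e-07 to 0.000562. Without 0w replicate 1, the library with the highest level, the change at 21w was -0.98 and no longer 2-fold. After the return the libraries held 50.4, 83.1 and 85.9 CPM at 12w+5dLD, 91.3, 97.6 and 99.9 CPM at 16w+5dLD and 75.9, 89.4 and 57.6 CPM at 21w+5dLD. All libraries of 12w+5dLD and 16w+5dLD were above those of the end of cold, and the gene rose by 1.48 (SE 0.22, adjusted p = 9.6e-05) and 1.62 (SE 0.22, adjusted p = 7.77e-05) on the log2 scale. From 21w to 21w+5dLD the groups overlapped and the change was 0.43 (adjusted p = 0.318, 95% interval -0.02 to 0.89).

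Of the PIP2 genes, *PIP2-1* encodes a water channel that in *A. thaliana* acts in roots, leaf veins and guard cells, is gated by phosphorylation and also passes hydrogen peroxide. It held 722, 682 and 601 CPM at 0w and 223, 207 and 221 CPM at 4w. It stood at 191, 212 and 179 CPM at 8w, 207, 279 and 279 CPM at 12w, 313, 339 and 367 CPM at 16w and 388, 341 and 223 CPM at 21w. All cold libraries were below those of 0w, and the libraries of 16w and 21w were above those of 8w. Against 0w it fell by 1.62 on the log2 scale at 4w, by 1.78 at 8w, by 1.39 at 12w and by 1.07 at 21w (SE 0.19 each, edgeR adjusted p-values from 1.45e-06 to 0.000307). At 16w the change of -0.98 had an adjusted p of 0.000464 and missed the fold limit narrowly. Without 21w replicate 3, the lowest library of its group, the change at 21w was -0.87.

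After the return *PIP2-1* held 385, 505 and 647 CPM at 12w+5dLD, 526, 454 and 422 CPM at 16w+5dLD and 373, 270 and 314 CPM at 21w+5dLD. The first of these groups lay above the end of cold without overlap, at 1.01 (SE 0.19, edgeR adjusted p = 0.00064). This value is just past the 2-fold limit, and it was 0.81 without 12w+5dLD replicate 3 and 0.89 without 12w replicate 1. At 16w+5dLD the libraries were also above those of 16w, by 0.46 with an adjusted p of 0.0769. At 21w+5dLD the libraries overlapped with those of 21w and the change was 0.01 (95% interval -0.39 to 0.40). The gene was then still 2-fold lower than at 0w, at -1.07 (adjusted p = 0.000519), or -0.96 without 21w+5dLD replicate 2.

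*PIP2-2* encodes a close relative of PIP2-1 that contributes to water uptake by *A. thaliana* roots. Where related copies are alike in sequence, reads may be shared out between them by the alignment. It had the largest changes of the family, with 99.2, 82.0 and 90.8 CPM at 0w and 7.27, 7.66 and 6.91 CPM at 4w. Levels were 2.06, 3.67 and 6.84 CPM at 8w, 4.54, 4.79 and 4.70 CPM at 12w, 8.10, 7.25 and 10.04 CPM at 16w and 9.22, 9.72 and 10.9 CPM at 21w. These lowest levels rest on as few as 33 counts in a library. The log2 fold changes against 0w were -3.64 ± 0.56 (± SE, 4w), -4.43 ± 0.58 (8w), -4.28 ± 0.58 (12w), -3.42 ± 0.55 (16w) and -3.19 ± 0.55 (21w), a 12.4-, 21.6-, 19.4-, 10.7- and 9.10-fold lower level, with edgeR adjusted p-values from 1.04e-05 to 0.000228.

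After the return *PIP2-2* was at 12.1, 12.5 and 37.6 CPM at 12w+5dLD, 20.6, 27.7 and 14.6 CPM at 16w+5dLD and 57.3, 10.1 and 64.3 CPM at 21w+5dLD. A single library of 12w+5dLD was far above its 2 replicates, and a single library of 21w+5dLD was at the level of 21w while its 2 replicates were several times higher. The rise at 12w+5dLD was 2.15 on the log2 scale (SE 0.53, edgeR adjusted p = 0.00493), and 1.40 with an adjusted p of 0.0534 without 12w+5dLD replicate 3. At 16w+5dLD all libraries were above those of 16w, and the change was 1.31 (SE 0.51, adjusted p = 0.0653). It was called in 4 of 15 alternatives, among them DESeq2 (1.32, adjusted p = 0.0337) and the fit with a replicate block (1.38, adjusted p = 0.049). At 21w+5dLD it was 2.14 (SE 0.52, adjusted p = 0.0531). The latter was called when either 21w+5dLD replicate 2 or 21w+5dLD replicate 3 was left out (2.61, adjusted p = 0.0247, and 1.75, adjusted p = 0.0363). Levels remained below 0w in all 9 libraries after the return. The difference from 0w was -2.13 at 12w+5dLD (adjusted p = 0.008), -2.11 at 16w+5dLD (adjusted p = 0.00779) and -1.05 at 21w+5dLD (adjusted p = 0.168).

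*PIP2-5* is known in *A. thaliana* as a PIP gene whose transcripts increase in chilled seedlings. Its libraries here held 76.1, 92.8 and 56.2 CPM at 0w, 49.3, 60.7 and 56.7 CPM at 4w, 51.0, 62.3 and 68.1 CPM at 8w and 60.6, 71.7 and 48.6 CPM at 12w. These 4 groups overlapped. At 16w the libraries were lower, at 25.3, 23.6 and 32.8 CPM, and at 21w they were at 58.3, 34.1 and 41.2 CPM. The difference from 0w was called at 16w alone, at -1.46 (SE 0.32, edgeR adjusted p = 0.00122). It was between -0.43 and -0.31 at 4w, 8w and 12w, and -0.75 at 21w (adjusted p = 0.0795).

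After the return *PIP2-5* stood at 47.1, 47.2 and 45.6 CPM at 12w+5dLD, 21.5, 35.3 and 19.6 CPM at 16w+5dLD and 44.7, 20.3 and 65.2 CPM at 21w+5dLD. Its change from the end of cold was -0.37, -0.10 and -0.04, and none of these passed the test (95% interval at 16w+5dLD -0.75 to 0.55). At 16w+5dLD the difference from 0w was -1.56 on the log2 scale (SE 0.32, edgeR adjusted p = 0.00183). At 21w+5dLD the difference of -0.79 was not called, and without 21w+5dLD replicate 3 it was -1.21 with an adjusted p of 0.0128.

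*PIP2-6*, a PIP2 gene expressed in *A. thaliana* leaves and their veins, had its highest group means in the cold and its lowest after the return. It held 198, 245.6 and 296 CPM at 0w, 282, 338 and 305 CPM at 4w and 383, 367 and 389 CPM at 8w. It was at 335, 257 and 369 CPM at 12w, 326, 314 and 274 CPM at 16w and 159, 315 and 187 CPM at 21w. The 8w libraries were all above those of 0w, and the other cold groups overlapped with 0w. The difference at 8w was 0.62 (SE 0.19, edgeR adjusted p = 0.0157), under 2-fold, and those at 4w, 12w and 16w were 0.32, 0.38 and 0.30 with adjusted p-values of 0.133 or more. After the return the level was 166, 153 and 153 CPM at 12w+5dLD, 140, 123 and 147 CPM at 16w+5dLD and 168, 142 and 160 CPM at 21w+5dLD. All 9 of these libraries were below all 3 libraries of 0w. From the end of cold the gene fell by 1.03 on the log2 scale at 12w+5dLD (SE 0.19, adjusted p = 0.000593) and by 1.15 at 16w+5dLD (SE 0.19, adjusted p = 0.000268), while 21w and 21w+5dLD overlapped and differed by -0.49 (adjusted p = 0.186). The first of these values was between -1.0 and -0.90 and no longer 2-fold without 12w replicate 1, 12w replicate 3, 12w+5dLD replicate 2 or 12w+5dLD replicate 3.

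*PIP2-7* encodes a water channel whose delivery to the plasma membrane and removal by autophagy have been studied in *A. thaliana*. It was called in no comparison. Its libraries held 730 to 778 CPM at 0w, 525 to 1108 CPM in the cold (median 737) and 370 to 1208 CPM after the return (median 669). Both extremes after the return came from libraries that stood apart from their replicates, 12w+5dLD replicate 1 at 370 CPM and 21w+5dLD replicate 3 at 1208 CPM. At 12w+5dLD the gene was lower than at 0w by -0.52, which passed the adjusted p (0.042, edgeR) but not the fold limit. The differences from 0w in the cold were between -0.22 and 0.24, with adjusted p-values of 0.284 or more.

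**Figure D2:**
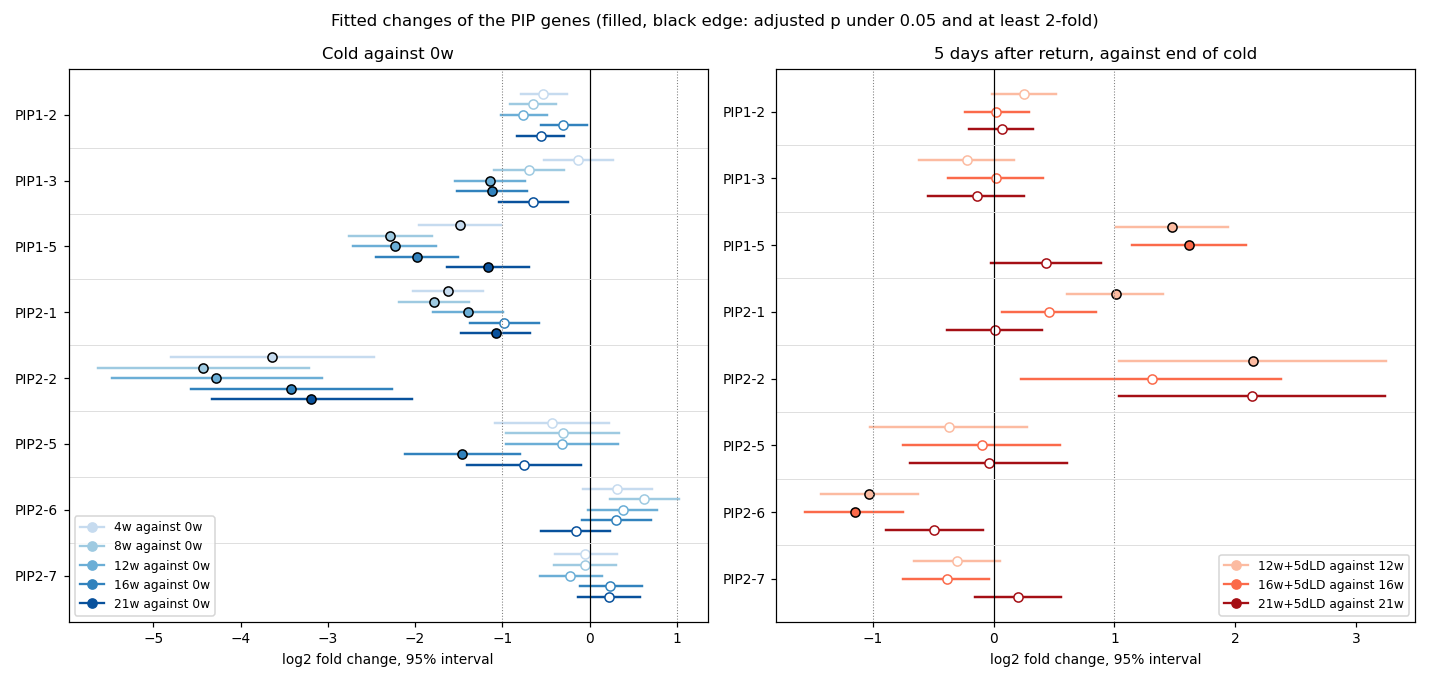
Fitted log2 fold changes (x axis) of the 8 PIP genes (y axis) with 95% intervals, on the left for the 5 cold durations against 0w and on the right for the 3 returns against the end of cold. Filled points with a black edge were called, and dotted lines mark the 2-fold limit. *PIP2-2* reaches -4.43 at 8w, and *PIP1-5* rises while *PIP2-6* falls after the return from 12 and 16 weeks.

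The second question was which genes changed when plants came back to LD. Of the 8 genes, 3 were higher at 12w+5dLD than at 12w (*PIP1-5*, *PIP2-1* and *PIP2-2*), 1 at 16w+5dLD (*PIP1-5*) and 0 at 21w+5dLD, where 5.77, 6.83 and 0.217% of all tested genes were called higher. *PIP2-6* was lower in the first and second of these comparisons and no gene in the third, where 4.88, 4.56 and 0.176% of all genes were called lower. The 42 higher and 34 lower genes behind the last of these shares depend on single libraries. They became 575 and 568 (2.94 and 2.90%) without 21w+5dLD replicate 3 and ranged from 3 to 10 higher and 8 to 26 lower when any other single library of the 2 groups was left out. With DESeq2 or the replicate block *PIP2-2* was also higher at 16w+5dLD, which made 2 higher genes in place of 1. For 21w+5dLD, 2 PIP genes had an unadjusted p under 0.05 (*PIP2-2* upward and *PIP2-6* downward), a threshold for which no share of all genes was counted. DESeq2 called 1, *PIP2-2*, beside 387 higher and 221 lower of 21303 genes. *PIP2-2* was also called by edgeR without 21w+5dLD replicate 3. Against 0w the counts of lower genes after the return were 2 at 12w+5dLD (*PIP1-3* and *PIP2-2*), 3 at 16w+5dLD (*PIP1-3*, *PIP2-2* and *PIP2-5*) and 1 at 21w+5dLD (*PIP2-1*), beside 3.64, 3.54 and 4.04% of all genes. Without 21w+5dLD replicate 3 the last count was 2, *PIP2-5* being added. None was higher than at 0w in edgeR or DESeq2, beside 3.24, 4.20 and 3.69% of all genes, and at an unadjusted p under 0.05 *PIP2-7* at 21w+5dLD was the only one, at 0.43. All comparisons with 0w share its 3 libraries, and both sets of comparisons share the libraries taken after the return.

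Whether the response to the return depended on how long the cold had lasted was tested as a difference of responses. The response of *PIP2-1* after 21 weeks was smaller than after 12 weeks by -1.0 on the log2 scale (SE 0.27, edgeR adjusted p = 0.0465). This was the 1 difference called among the 8 genes, beside 1.72% of all tested genes, and its adjusted p lay between 0.0122 and 0.128 when single libraries were left out. Without 21w+5dLD replicate 3 the size was the same but the adjusted p missed the threshold, and 0 genes were called. For *PIP1-5* the same difference was -1.04 (SE 0.31, adjusted p = 0.0703). No PIP gene was called for 21 against 16 weeks, beside 1.03% of all genes. This share was between 0.158% (without 21w replicate 1) and 2.47% (without 21w+5dLD replicate 1) when single libraries were left out, and 0.439% without 21w+5dLD replicate 3, while that for 21 against 12 weeks was between 0.710% (without 12w replicate 1) and 2.67% (without 21w+5dLD replicate 1). The difference for *PIP1-5* was -1.19 (SE 0.31, adjusted p = 0.0535). At an unadjusted p under 0.05 there were 3 genes in that comparison, a threshold for which no share of all genes was counted. DESeq2 called *PIP1-5*, beside 419 higher and 457 lower of 21303 genes. None was called for 16 against 12 weeks by edgeR, beside 0.0207% of all genes, and none by DESeq2 or at an unadjusted p under 0.05.

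Between successive cold durations no PIP gene was called by edgeR. The shares of all genes called in either direction were 0.222% for 8w against 4w, 0.0207% for 12w against 8w, 0.176% for 16w against 12w and 1.58% for 21w against 16w. Without single libraries these shares were as low as 0.0562, 0.0357, 0.0817 and 0.567% and as high as 0.214, 0.0766, 0.204 and 1.52%. At an unadjusted p under 0.05 there were 2, 1, 4 and 4 PIP genes in these steps. The shares of all genes above do not apply to this looser threshold, for which no share was counted. DESeq2 called 1, *PIP2-5* from 12w to 16w, at -1.14 (adjusted p = 0.0157), against -1.15 in edgeR (adjusted p = 0.155). For this step DESeq2 called 183 higher and 248 lower of 21303 genes. The rise of *PIP1-5* from 16w to 21w was 0.81 (edgeR adjusted p = 0.0375) and stayed under 2-fold, its libraries at 21w lying above all those of 16w.

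Ordered by group means, 6 of the 8 genes had their highest level at 0w. The exceptions were *PIP2-6*, highest at 8w, and *PIP2-7*, highest at 21w+5dLD. Most neighbours in each order could not be told apart, since the libraries of the 2 groups overlapped in 5 to 8 of the 8 neighbouring pairs. For *PIP1-5* the order was 0w, 16w+5dLD, 21w+5dLD, 12w+5dLD, 21w, 4w, 16w, 12w and 8w. In this order 0w stood clear of 16w+5dLD, 16w+5dLD of 21w+5dLD and 4w of 16w, and the other neighbours overlapped. For *PIP2-2* 0w stood clear of 21w+5dLD, 12w+5dLD of 21w and 4w of 12w.

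The counts of the 8 genes together were 3470 ± 54.3 CPM (SD, n = 3) at 0w, 0.334% of all counts. In the cold the sums were 2452 ± 59.2 CPM (4w), 2352 ± 96.9 (8w), 2180 ± 318 (12w), 2764 ± 171 (16w) and 2543 ± 188 (21w). After the return the sums were 2341 ± 413 CPM at 12w+5dLD, 2607 ± 120 at 16w+5dLD and 2697 ± 297 at 21w+5dLD. All 24 later libraries lay between 1813 and 2972 CPM and below the lowest 0w library at 3409 CPM. The share of counts within the family also changed. *PIP2-1* took 19.3 ± 1.79% of the PIP counts at 0w, 8.85 ± 0.279% at 4w and 21.7 ± 1.91% at 12w+5dLD, while *PIP2-2* took 2.61 ± 0.209% at 0w and 0.180 ± 0.109% at 8w. *PIP2-6* went from 7.11 ± 1.43% at 0w to 16.2 ± 1.14% at 8w and 5.27 ± 0.696% at 16w+5dLD, and *PIP2-7* from 21.5 ± 0.707% at 0w to 34.4 ± 1.40% at 21w and 37.2 ± 3.62% at 21w+5dLD. *PIP1-2* kept between 35.0 and 42.0% in every group.

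**Figure D3:**
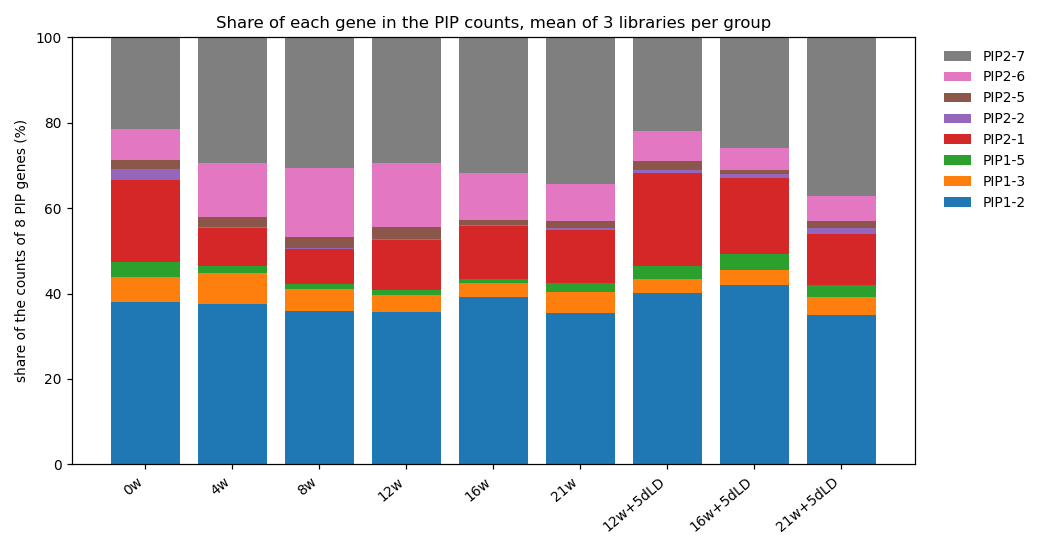
Share of each of the 8 genes in the PIP counts (y axis, %, mean of 3 libraries) by group (x axis). The shares are of counts, which longer transcripts collect more of, so a segment is to be compared between bars and not with the segment of another gene. *PIP2-1* narrows from 19.3% at 0w to 8.85% at 4w, and *PIP2-6* widens from 7.11 to 16.2% at 8w.

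The other aquaporins of the table give the setting for these values. At the 5 cold durations 7.14 to 10.2% of all tested genes were called lower than at 0w and 5.14 to 7.07% higher. Of 3 PIP loci outside the 10, 1 had a row, the PIP2 gene *PIP2-8*. It held 45.9 ± 4.88 CPM (SD, n = 3) at 0w. *PIP2-8* was lower at 8w (-1.60), 12w (-1.50) and 16w (-1.43), with edgeR adjusted p-values from 0.000902 to 0.00207. Tonoplast intrinsic proteins (TIPs) carry water across the vacuolar membrane, and 5 were tested. Of these 1 or 2 were lower at each cold duration and none higher. *TIP4-1* was at 31.6 ± 3.57 CPM at 0w and 2.59 ± 0.445 CPM at 8w, a change of -3.60 (adjusted p = 0.00216). *TIP1-2* fell by 1.06 at 8w on the log2 scale (adjusted p = 7.32e-05), and *TIP1-1* by 1.79 at 16w (adjusted p = 7.89e-05). Of the 3 small basic intrinsic proteins, which sit in the endoplasmic reticulum, *SIP1-2* alone was lower, at 4w, 8w and 12w, with -1.12 at 8w (adjusted p = 0.00929).

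Nodulin-26-like intrinsic proteins (NIPs) include channels for boric acid, and 4 were tested. Of these 1 was lower at 4w, 8w and 12w and 2 at 16w and 21w, and none was higher, beside 7.14 to 10.2% lower and 5.14 to 7.07% higher among all tested genes. *NIP6-1*, which in *A. thaliana* passes boric acid towards growing shoot tissue, was at 126 ± 17.7 CPM at 0w and 18.2 ± 1.12 CPM at 16w, a change of -2.79 (edgeR adjusted p = 1.72e-05). *NIP1-2* was lower at 16w by -1.74 (adjusted p = 0.00238), and *NIP5-1*, the boric acid channel of *A. thaliana* roots, at 21w by -1.61 (adjusted p = 0.000817). *NIP6-1* was back at 146 ± 40.1 CPM at 12w+5dLD and 95.7 ± 7.07 CPM at 16w+5dLD but stood at 18.9 ± 10.3 CPM at 21w+5dLD, and its response after 21 weeks differed from that after 12 weeks by -2.53 (adjusted p = 0.0142).

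Proteins that act on PIPs were measured through 9 tested genes, of which 2 were higher at 4w, 8w and 12w and 1 at 16w and 21w. In the same order of durations 1, 2, 2, 2 and 1 were lower. Of all tested genes 5.60, 6.26, 7.07, 7.07 and 5.14% were higher and 7.39, 9.11, 9.38, 10.2 and 7.14% lower. *RMA1*, a ubiquitin ligase that directs PIP2-1 to degradation in *A. thaliana*, rose by 1.71 at 8w, from 13.2 ± 1.73 CPM (SD, n = 3) at 0w to 43.2 ± 1.06 CPM (edgeR adjusted p = 1.29e-05). It was 12.7 ± 0.864 CPM at 12w+5dLD and 13.6 ± 3.46 CPM at 16w+5dLD, lower than at the end of cold by -1.35 (adjusted p = 0.00025) and -1.25 (adjusted p = 0.000504). *TSPO*, a membrane protein through which PIP2-7 is sent to autophagy in *A. thaliana*, rose by 1.31 at 8w, to 5.97 ± 0.851 CPM from 2.40 ± 0.832 CPM (adjusted p = 0.00497). At 21w, a value singled out after it was seen, *TSPO* stood at 14.9 ± 3.40 CPM, higher than at 0w by 2.64 (adjusted p = 1.99e-05). *GRF4*, a 14-3-3 protein that binds PIP2-1, fell by 1.35 at 8w (adjusted p = 1e-07), from 509 ± 15.1 to 200 ± 15.5 CPM, and *QSK1*, a receptor kinase of the complex that regulates PIPs in roots, by 1.44 (adjusted p = 9.48e-07).

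Over the 27 libraries the members fell into loose sets, described here with no test because libraries of a group share their treatment. The Pearson correlation of log2(CPM + 1) was 0.82 between *PIP1-5* and *PIP2-2*, 0.79 between *PIP1-5* and *PIP2-1* and 0.79 between *PIP2-1* and *PIP2-2*. *PIP2-6* ran opposite to these genes, at -0.71 with *PIP1-5*, -0.56 with *PIP2-1* and -0.51 with *PIP2-2*. *PIP1-2* went with the same genes, at 0.74 with *PIP2-1*, 0.70 with *PIP2-2* and 0.66 with *PIP1-5*, and had -0.26 with *PIP2-6*. *PIP1-3* and *PIP2-5* had 0.52 with each other and between -0.12 and 0.37 with *PIP1-5*, *PIP2-1* and *PIP2-2*. The 5 genes most like *PIP1-5* were AT1G22410, a DAHP synthase at the entry to the shikimate pathway, AT3G23810, an S-adenosylhomocysteine hydrolase, AT2G37040 (*PAL1*), the first enzyme of phenylpropanoid synthesis, AT2G38080 (*LAC4*), a laccase of lignin polymerisation, and AT3G62020, a germin-like protein. Each had r = 0.97 over the 27 libraries. Of 14848 genes compared, 755 were above 0.8, so that a close likeness was not rare.

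The 9 xylem and fiber wall genes (*CESA4*, *CESA7*, *CESA8*, *IRX9*, *LAC4*, *LAC17*, *FLA11*, *XCP1* and *XCP2*) moved with several PIP genes. Their summed level ranged from 3180 to 4320 CPM in the 0w libraries, 478 to 630 CPM at 4w, 166 to 364 CPM at 8w, 27.5 to 189 CPM at 12w, 372 to 421 CPM at 16w and 497 to 996 CPM at 21w. It was 262 to 1780 CPM at 12w+5dLD, 1400 to 2330 CPM at 16w+5dLD and 860 to 1790 CPM at 21w+5dLD, and *CESA4* was at 0 in 6 libraries. Of the 9 genes, 7, 8, 8, 8 and 5 were lower than 0w from 4w to 21w, and 8, 5 and 0 higher after the return. Of all tested genes 7.39, 9.11, 9.38, 10.2 and 7.14% were lower in these cold comparisons. After the return 5.77, 6.83 and 0.217% were higher, the last share depending on single libraries. Across libraries, the correlation with this sum was 0.92 for *PIP1-5*, 0.80 for *PIP2-2*, 0.79 for *PIP1-2*, 0.74 for *PIP2-1*, 0.24 for *PIP2-7* and -0.56 for *PIP2-6*. It was 0.39 for *PIP1-3* and -0.13 for *PIP2-5*. In the 24 libraries other than 0w it was 0.90 for *PIP1-5*, 0.70 for *PIP2-2* and *PIP1-2*, 0.62 for *PIP2-1* and 0.27 for *PIP2-7*. There it was 0.11 for *PIP1-3*, -0.48 for *PIP2-5* and -0.70 for *PIP2-6*. These are descriptions with no test. The library 12w+5dLD replicate 1 had the lowest sum after the return (262 CPM), and it also had the lowest levels of *PIP1-2*, *PIP1-3*, *PIP1-5* and *PIP2-7* of that stage. The 3 detected epidermis genes fell from 68.9 to 87.2 CPM in sum at 0w to 9.51 to 15.5 CPM at 21w, and the 6 phloem genes stayed between 253 and 521 CPM in all libraries. Of the 3 detected root genes, *PYK10* was at 0 to 10.98 CPM at 0w and 141 to 217 CPM at 16w and was called higher, while *CASP1* (9.59 to 13.99 CPM at 0w) and *CASP2* (2.95 to 5.04 CPM at 0w) were at or near 0 at 16w and were called lower. The 4 detected genes of leaf photosynthesis summed to 2230 to 2650 CPM at 0w and 1410 to 1710 CPM at 21w. Correlations with the epidermis sum were 0.65 for *PIP1-3* and 0.52 for *PIP2-5* and *PIP2-6*. Outside 0w these were 0.45, 0.37 and 0.67. With the phloem sum they were 0.60 for *PIP2-7*, 0.55 for *PIP2-2* and 0.53 for *PIP1-5*. With the root sum they were -0.72 for *PIP1-5*, -0.64 for *PIP2-2*, -0.54 for *PIP1-3* and -0.52 for *PIP1-2*. Outside 0w these were -0.58, -0.34, -0.27 and -0.17. With the leaf photosynthesis sum *PIP2-7* was at -0.52. Over the 27 libraries the remaining values for these lists were smaller in size. The part of these tissue markers in the PIP results was not tested.

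**Figure D4:**
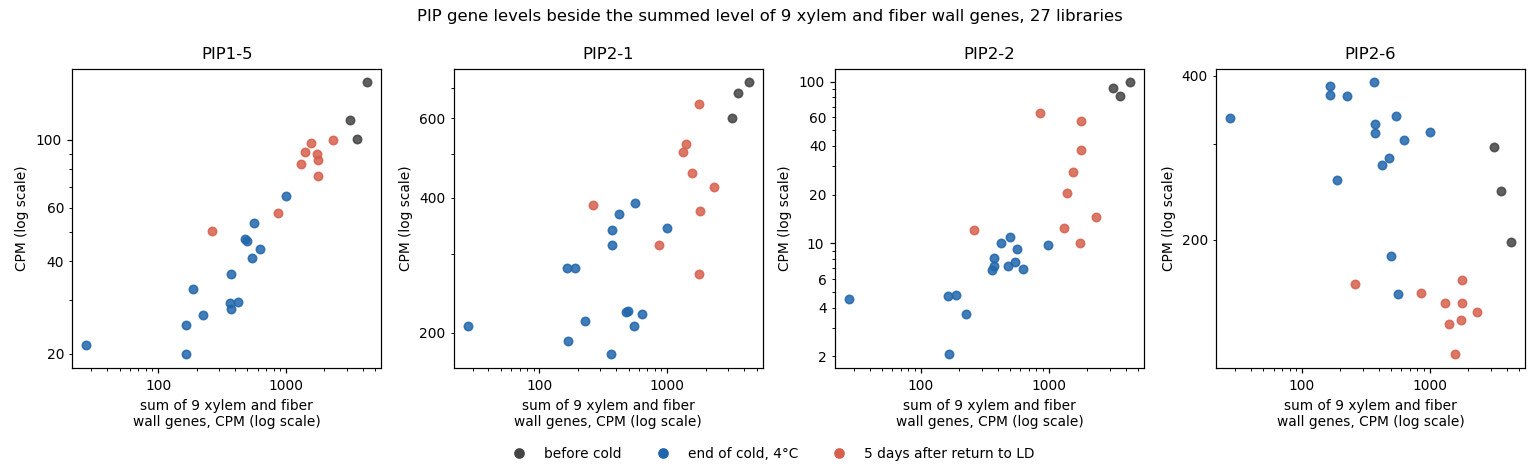
Level of 4 PIP genes (y axis, CPM, log scale) against the summed level of 9 xylem and fiber wall genes (x axis, CPM, log scale), with 1 point for each of 27 libraries coloured by stage. *PIP1-5* follows the sum (r = 0.92), and *PIP2-6* is highest where the sum is low (r = -0.56).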

How the data were processed

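Counts per gene were made by the authors from strand-specific poly-A libraries (150-bp single-end reads) with HISAT2, StringTie and its conversion script, which derives a count from coverage, and were deposited as raw counts for 27 libraries. For versions, genome build and the treatment of reads that match several genes, the sources used here name nothing. The deposited comparison sheets hold log2 fold changes and adjusted p-values of the authors, which were not used. Their pairing of IDs with *A. thaliana* loci filled 1 of 5687 blanks and no PIP gene.

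In R 4.3.3 with edgeR 4.0.16, genes with low counts were removed (filterByExpr, 19337 of 21641 kept), counts were scaled by TMM and 9 group means were fitted by quasi-likelihood to all 27 libraries (18 residual degrees of freedom), with Benjamini-Hochberg adjustment over all tested genes. The procedure was tested on simulated data. Correlations used a pseudocount of 1 CPM. All PIP rows used are named, with single libraries for those called in the cold or after the return. Of other lists, up to 3 called genes per direction with the largest change at the cold duration with most calls (all durations where tied) and a mean of at least 5 CPM are named. The members and lists were chosen with earlier results of these data known. The alternatives were DESeq2 1.42.0, other scalings and filters, the adjusted p alone, only the groups compared, a replicate block and leaving out each library. The replicates are pools of separate plants. No gene lengths or sequences were used here.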

Additional observations from a re-analysis of the deposited data

Results flagged for a closer look

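The return response of *PIP2-1* differed between plants that had spent 21 and 12 weeks in the cold, by -1.0 on the log2 scale (edgeR adjusted p = 0.0465). The gene was higher by 1.01 after 12 weeks and by 0.01 after 21 weeks. The difference is at the 2-fold limit and near the threshold, and it was called in 4 of 12 fits that each left out a library of the 4 groups.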

How the results depend on the processing

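Of 285 recomputed counts of PIP genes, 249 stayed within 1.5 times the reported count. Of 845 recomputed changes of single genes that were called in at least 1 setting, 775 kept their side of the thresholds, 26 lost the call, 44 gained it and 0 reversed. With the adjusted p alone, 6 genes differed from 0w at 8w (3 with the 2-fold limit), 5 at 21w (3), 6 at 12w+5dLD (2) and 5 at 21w+5dLD (1), and 1 differed between 21w and 16w (0). Of all 19337 tested genes, 3163 were then higher and 3270 lower at 8w, and 2581 and 2829 at 21w. At 12w+5dLD these were 1395 and 1699, at 21w+5dLD 1698 and 1855, and for 21w against 16w 470 and 549. DESeq2 called 1 gene for 16w against 12w (0 in edgeR), 1 for 21w+5dLD against 21w (0), 2 for the return response after 21 against 12 weeks (1) and 1 for 21 against 16 weeks (0). Of 21303 genes, DESeq2 called 183 higher and 248 lower for 16w against 12w and 387 and 221 for 21w+5dLD against 21w. For the return responses it called 511 and 474 (21 against 12 weeks) and 419 and 457 (21 against 16 weeks). Scaling by library totals only called 0 genes for 21w+5dLD against 0w (1), 2 for the return response after 21 against 12 weeks and 1 for 21 against 16 weeks. It also moved the median of all genes by 0.14 on the log2 scale for 21w against 0w, 0.13 for 21w+5dLD against 0w and 0.11 for 16w+5dLD against 0w and for 21w against 16w. Splits of all called genes then went from 994 higher and 1381 lower to 1326 and 1134 for 21w against 0w, from 714 and 782 to 949 and 648 for 21w+5dLD against 0w, and from 164 and 141 to 280 and 103 for 21w against 16w. For the return responses they went from 204 and 128 to 159 and 185 (21 against 12 weeks) and from 127 and 72 to 84 and 127 (21 against 16 weeks), and under upper-quartile scaling from 42 and 34 to 68 and 36 for 21w+5dLD against 21w. Under library totals *PIP2-1* was at -0.93 for both 21w and 21w+5dLD against 0w, *PIP1-3* at -0.98 for 16w+5dLD against 0w and *PIP2-6* at -0.94 for 12w+5dLD against 12w, all under 2-fold. A stricter filter on low counts called 1 gene for 21w+5dLD against 21w and 1 for the return response after 21 against 16 weeks, upper-quartile scaling 1 for 21w+5dLD against 21w, and the stricter filter and no filter each 0 for 21 against 12 weeks. With the stricter filter 78 higher and 40 lower of 17747 genes were called for 21w+5dLD against 21w. For 21 against 16 weeks 137 and 86 were called, and for 21 against 12 weeks 217 and 139. With no filter the last were 188 and 116 of 21303. Causes of these shifts were not tested. Leaving out single libraries gave 1 to 4 genes for 12w+5dLD against 12w, 2 to 3 for 21w and 4 to 5 for 16w against 0w, 0 to 2 for 21w+5dLD against 0w, 0 to 1 for 21w+5dLD against 21w, 0 to 2 for the return response after 21 against 12 weeks and 0 to 1 for 21 against 16 weeks. Same-numbered libraries correlated at -0.06 to 0.09 in their deviations from the group means over the most variable genes. Libraries of different numbers were not compared in this way, so these values cannot settle whether replicate numbers pair the libraries. With the replicate block 0 genes were called for the return response after 21 against 12 weeks (*PIP2-1* adjusted p = 0.0658, edgeR), and 3 for 16w+5dLD against 16w (2), where the higher genes were 2 in place of 1 by *PIP2-2* (adjusted p = 0.049). The replicate block changed no other of these counts. *PIP2-2* rests on as few as 33 counts in a library. Its SD was 58.1% of the mean at 8w but 2.64% at 12w, and it was 70.5% at 12w+5dLD and 67.2% at 21w+5dLD.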
